A study of Mus musculus with 8 samples.

Results

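The genes described here are 9 genes that mark the choroid plexus epithelium, namely *Ttr*, *Folr1*, *Kl*, *Clic6*, *Aqp1*, *Sostdc1*, *Enpp2*, *Prlr* and *Slc4a5*. They were chosen by name from knowledge of that tissue, with earlier results of these data known. All 9 were found once among the 54752 genes of the count tables. Of these 9 genes, 8 passed the filter on low counts and belonged to the 17865 genes tested, and *Slc4a5* did not pass. RNA captured by its poly(A) tail was sequenced from the fetal brains of wild-type C57BL/6 mice (C57BL/6Slac in the methods of the study) at E15.5, with 1 library per brain. The stress group came from a dam kept under chronic unpredictable mild stress (CUMS, a daily change of mild stressors) from E5.5 to E14.5, and the control group from a dam without it. Each group had 4 brains, 2 females and 2 males, namely F36, F37, M30 and M31 in the control group and F34, F35, M28 and M29 in the stress group. The 4 control brains were littermates and the 4 stressed brains came from another single litter. Litter and stress therefore cannot be told apart here, and the p-values measure only the spread between littermates. The sample sheet of the study names the tissue half_whole_brain, whereas its methods speak of whole fetal brains. Whether and how the tissue was divided is not given in the sources used here.

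The choroid plexus is a fold of the ventricle wall in which a single layer of epithelial cells covers leaky capillaries. The epithelium grows out of the roof plate and the cortical hem of the embryonic brain, secretes the cerebrospinal fluid (CSF), and carries hormones, vitamins and growth factors between blood and CSF. It is already secretory at this stage of mouse development, and transthyretin is among its most abundant products. In RNA from undissociated brain tissue, fewer cells of this type and less RNA per cell cannot be told apart.

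The libraries held between 25320109 and 29105710 counts, so that 3 counts corresponded to 0.104 to 0.118 counts per 1000000 (CPM, here on totals scaled by edgeR's TMM method). *Ttr* had between 16 and 827 counts in a brain, *Enpp2* between 595 and 726, *Prlr* between 70 and 94, and *Sostdc1* between 38 and 67. *Kl*, *Clic6*, *Aqp1*, *Folr1* and *Slc4a5* had at most 44, 35, 31, 18 and 18 counts, and *Folr1* and *Slc4a5* came down to 5. The label was also checked on 22 other genes known from the plexus epithelium, of which 15 passed the filter and 7 did not. The abundant ones, *Slc29a4*, *Otx2* and *Slco1c1*, are also made by other brain cells, and their levels are given further on. *Kcnj13*, a potassium channel of its apical membrane, had 0 or 1 count in each brain. Of its exon bases 49.1% also lie in *Gigyf2* on the other strand. Unstranded counting cannot assign reads there to *Kcnj13* alone, so its count may be too low. *Cldn2*, the claudin of its tight junctions, had 0 to 6 counts, and the keratins *Krt8* and *Krt18* had 1 to 6 and 2 to 7. The level of the plexus genes was thus uneven, with some defining genes at or near 0, and the 9 genes are treated below as genes, not as a measured cell type.

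Divided by exon length, the level was highest for *Enpp2*, with a median over the 8 brains of 4.21 CPM per kilobase, followed by *Ttr* with 2.97 and *Sostdc1* with 1.01. *Aqp1* followed with 0.262, *Clic6* with 0.229, *Prlr* with 0.185, *Folr1* with 0.174, *Kl* with 0.101 and *Slc4a5* with 0.0482 CPM per kilobase. Of the neighbours in this order, *Sostdc1* and *Aqp1* were the only pair whose ranges over the brains did not overlap. The order of *Enpp2* and *Ttr* changed from brain to brain, with *Enpp2* higher in 4 of 8. The median mean level of the genes tested was 4.20 CPM per kilobase, and 4.88% of them had a mean level below that of *Folr1*, 1.71% below that of *Kl* and 0.207% below that of *Slc4a5*. The plot of CPM by brain shows that *Ttr* spanned more of the scale than any other of the 9 genes.

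**Figure D1:**
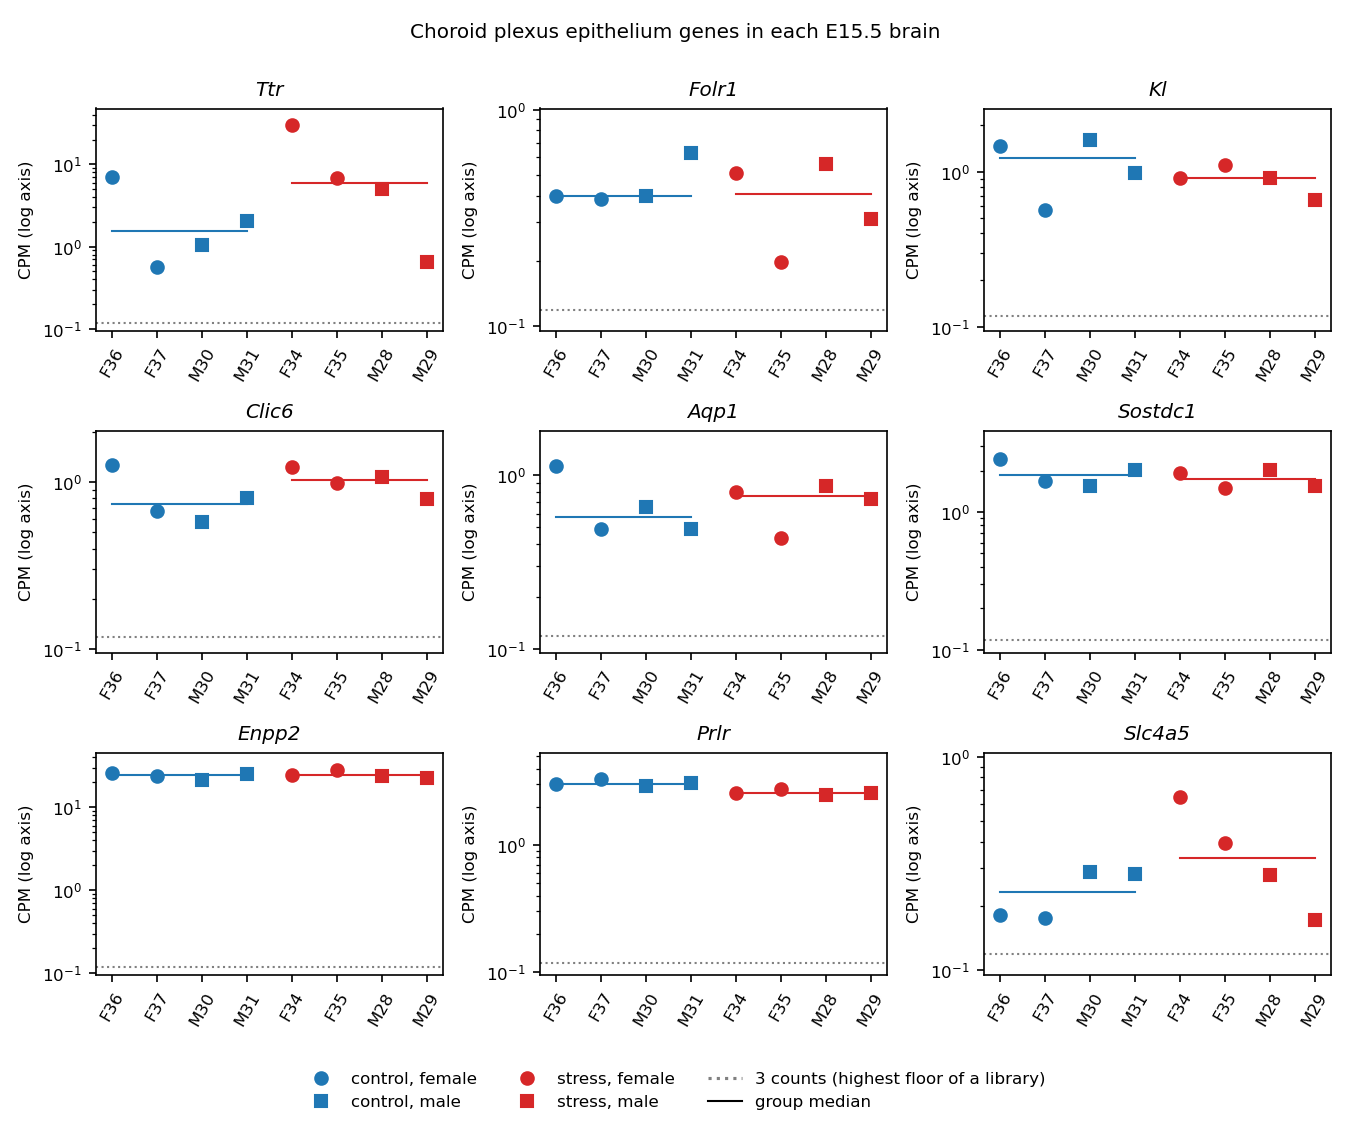
CPM of each of the 9 genes in each brain on log axes that differ between panels, with control brains in blue, stressed brains in red, females as circles, males as squares, group medians as lines and the level of 3 counts as a dotted line. *Ttr* runs from 0.563 CPM in control F37 to 29.9 CPM in stress F34, whereas the groups are apart in the panel of *Prlr* alone.

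In the comparison of stress with control, 1 of the 8 genes tested passed an adjusted p of 0.05 (edgeR's quasi-likelihood test with Benjamini-Hochberg adjustment over all genes tested, sex as covariate), against 13.8% of all genes tested. The called gene was *Ttr*, in the direction stress higher, in which 6.49% of all genes were called, and none was called lower, against 7.27% of all genes. In the lists of other genes below, which were not tested as sets, the counts of called genes stand beside the same shares. The median log2 fold change (Log2FC, stress vs. control) of the 8 genes was -0.06, with 4 of 8 above 0, beside a median of 0.00 over all genes tested. The CPM of the groups did not overlap for 1 of the 8 genes, *Prlr*, against 16.4% of all genes tested, and against 8.22% in its direction, stress lower.

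*Ttr* (chromosome 18, bases 20665280 to 20674321, plus strand, mm10) encodes transthyretin, the carrier of thyroxine and of retinol-binding protein in CSF and blood. Its level in controls was 6.95 CPM in F36, 0.563 in F37, 1.05 in M30 and 2.04 in M31. Under stress it was 29.9 CPM in F34, 6.75 in F35, 5.01 in M28 and 0.656 in M29. The groups overlapped, since control F36 stood above 3 of the stressed brains and stress M29 stood below 3 of the control brains. The control mean was 2.65 ± 2.93 CPM and the stress mean 10.6 ± 13.1 CPM (SD over 4 brains each). The Log2FC of *Ttr* was 1.91 (SE 0.47, 95% interval 0.94 to 2.88, adjusted p = 0.00717 by edgeR's quasi-likelihood test). The exact permutation test of the 8 brains, two-sided, gave p = 0.314, where the smallest p it can give is 0.0286.

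The call of *Ttr* depended on how the spread among littermates entered the test. edgeR moves the spread of each gene toward that of genes of similar level, with a weight of 20.3 prior degrees of freedom in this fit. Its robust form, in which a gene with an outlying spread is moved less (0.193 prior degrees of freedom for *Ttr*), gave the same Log2FC with an SE of 1.02 and an adjusted p = 0.321. DESeq2's Wald test gave a Log2FC of 1.59 with an adjusted p = 0.412. Without sex as covariate the edgeR fit gave a Log2FC of 2.0 with an adjusted p = 0.0664. Without stress F34 the Log2FC was 0.86 (adjusted p = 0.252), and without control F37 it was 1.22 (adjusted p = 0.0722), both by edgeR. The fit without the filter on low counts called *Ttr* as well, but there the prior degrees of freedom were infinite, so that the spread of *Ttr* itself had no part in its p-value.

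**Figure D2:**
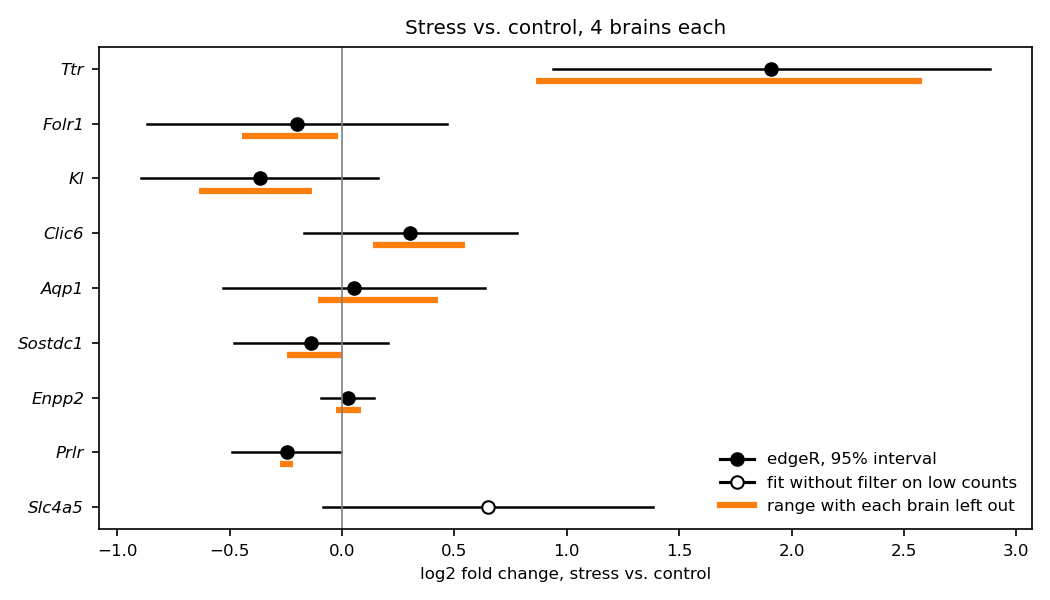
Log2FC of the 9 genes with 95% intervals as black lines, and the range of the Log2FC with each of the 8 brains left out in turn as orange bars. The open circle of *Slc4a5* comes from the fit without a filter on low counts. *Ttr* keeps a positive Log2FC between 0.86 and 2.58, the bar of *Prlr* stays between -0.27 and -0.22, and the bars of *Aqp1* and *Enpp2* cross 0.

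The spread of *Ttr* among littermates was itself large. Its highest value was 12.3 times its lowest among controls and 45.6 times among stressed brains. The SD of its log2 CPM within groups was 1.88, against a median of 0.08 over all genes tested and of 0.17 over the 1343 genes of similar level (within 0.5 on the log2 scale). Only 10 of the 17865 genes tested had a larger one, and *Ttr* ranked 5 among the 17269 autosomal genes. The plot of spread against level shows *Ttr* far above the cloud of genes and *Prlr* near its lower edge.

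**Figure D3:**
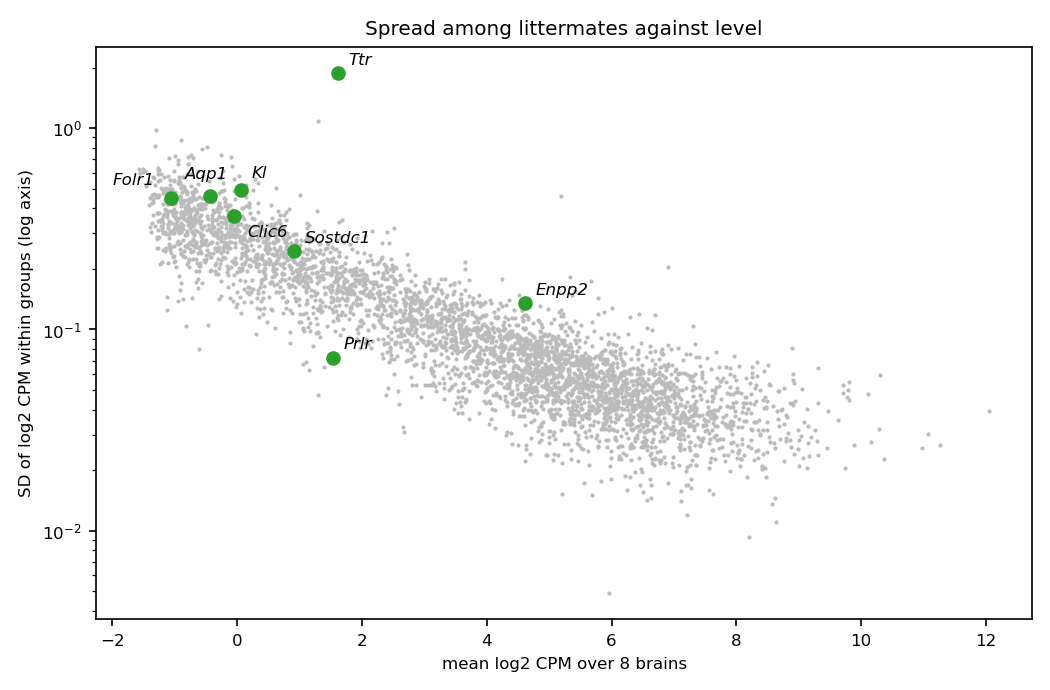
SD of log2 CPM within groups (log axis) against mean log2 CPM for a random draw of the genes tested in grey and for the 8 tested plexus genes in green. *Ttr* lies at an SD of 1.88, and *Prlr* at 0.07, lower than 98.2% of the genes of similar level.

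By sex, the mean level of *Ttr* was 11 CPM in the 4 females and 2.19 CPM in the 4 males. The difference of males from females was -2.25 on the log2 scale (SE 0.48, adjusted p = 0.0722 by edgeR) and did not pass the test, and 0.0896% of all genes passed it. The robust form of edgeR's test gave an SE of 1.04 and an adjusted p = 0.867. Both the highest value, 29.9 CPM in stress F34, and the lowest, 0.563 CPM in control F37, were in females. Within females the Log2FC was 2.32 (SE 0.41, adjusted p = 0.00102 by edgeR, 2 brains against 2), in a fit that called 3.91% of all genes, and the robust form gave an adjusted p = 0.611. Within males the Log2FC was 0.87 (SE 0.41, adjusted p = 0.204 by edgeR), in a fit that called 8.49% of all genes, and the robust form gave an adjusted p = 0.809. The interaction of sex and stress was -1.45 on the log2 scale (SE 1.07, adjusted p = 0.880), so no difference between the sexes in the response of *Ttr* was shown, in a fit that called 0.0056% of all genes. For no other of the 8 genes tested did the sex difference, the response within a sex or the interaction pass the test, with adjusted p-values by edgeR of 0.157 or more. *Slc4a5* passed the filter in the females alone, with a Log2FC of 1.54 (SE 0.56, adjusted p = 0.121 by edgeR).

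*Enpp2* (chromosome 15, bases 54838901 to 54952892, minus strand) encodes autotaxin, the secreted enzyme that makes lysophosphatidic acid, and is known from oligodendrocyte precursors and other brain cells as well as from the plexus. Of its exon bases 5.97% also lie in *Gm26684* on the other strand. Its level was 26.3, 23.9, 21.6 and 25.5 CPM in control F36, F37, M30 and M31 and 24.7, 28.3, 23.8 and 22.3 CPM in stress F34, F35, M28 and M29. The groups overlapped over most of their range, with a Log2FC of 0.02 (SE 0.06, 95% interval -0.09 to 0.14, adjusted p = 0.833 by edgeR). This interval was the narrowest of the 9 genes. The 9 lysophosphatidic acid receptors and phosphatases, the side of the pathway that reads or removes the product, held 7 genes that were tested and none that was called. Among them *Plpp3*, a phosphatase of lipid phosphates, had the highest level per kilobase, with 78.9 CPM in the control and 82.2 CPM in the stress group. *Lpar1*, the main receptor of neural progenitors, had 10.2 ± 0.478 CPM in the control and 11.3 ± 0.556 CPM in the stress group (SD over 4 brains each), with an adjusted p = 0.147 by edgeR. It was the 1 gene of the 7 tested whose groups did not overlap, against 16.4% of all genes tested.

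*Kl* (chromosome 5, bases 150952607 to 150993817, plus strand) encodes klotho, a membrane protein that is also shed into CSF and acts as coreceptor of FGF23. Its level was 1.46, 0.563, 1.59 and 0.983 CPM in the control brains, in the order used above, and 0.904, 1.11, 0.905 and 0.656 CPM in the stressed brains. Control F37 had the lowest value of all 8 brains and control M30 the highest, and the Log2FC was -0.37 (SE 0.26, 95% interval -0.89 to 0.16, adjusted p = 0.392 by edgeR). Of 8 genes of FGF signalling through klotho or its relative beta-klotho, 7 were tested and 2 rose, against 6.49% of all genes. These were *Fgfr3*, a receptor of FGFs (Log2FC 0.21, adjusted p = 0.000662), and *Fgf15*, an endocrine FGF that acts through beta-klotho and not through klotho (Log2FC 0.24, adjusted p = 0.0109), of which 25.7% of the exon bases lie in genes of the other strand. *Fgfr1*, an FGF receptor that klotho binds and the one of highest level per kilobase, had 118 CPM in the control and 119.1 CPM in the stress group.

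*Sostdc1* (chromosome 12, bases 36314139 to 36318452, plus strand) encodes a secreted inhibitor of BMP and Wnt signals. Its level was 2.44, 1.69, 1.56 and 2.04 CPM in the control brains and 1.92, 1.5, 2.02 and 1.55 CPM in the stressed brains. The groups overlapped, with control F36 the highest, and the Log2FC was -0.14 (SE 0.17, 95% interval -0.48 to 0.20, adjusted p = 0.656 by edgeR). Of 9 targets and relatives, 8 were tested and 1 rose, *Lrp4*, a receptor that binds this inhibitor (Log2FC 0.24, adjusted p = 0.000761). *Lrp6*, the Wnt coreceptor and the one of highest level per kilobase, had 89.6 CPM in the control and 91.7 CPM in the stress group.

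Among the receptors, *Prlr* (chromosome 15, bases 10177238 to 10349180, plus strand) encodes the prolactin receptor, which also binds placental lactogens. In the RefSeq table used here (GRCm38.p6), start windows were found for 4 of the 9 genes, 6 windows in all, of which 3 belong to *Prlr*. They are shown because *Prlr* is the one gene whose groups did not overlap, and because its counts sum over all these starts. The 250 bases before each start are printed, at chr15:10176988-10177237, chr15:10223656-10223905 and chr15:10293401-10293650 on the plus strand. Both strands were searched for the CCAAT box (CCAAT), for the TATA box (TATAAA), for a forkhead motif (TGTTTAC) and for the motif of OTX2 (TAATCC), and capitals mark a match.
Prlr start 1: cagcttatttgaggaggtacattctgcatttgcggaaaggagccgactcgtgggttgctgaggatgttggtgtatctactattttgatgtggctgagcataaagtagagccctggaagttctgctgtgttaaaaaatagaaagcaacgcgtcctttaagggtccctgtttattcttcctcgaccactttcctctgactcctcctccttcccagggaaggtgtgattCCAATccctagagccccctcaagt
Prlr start 2: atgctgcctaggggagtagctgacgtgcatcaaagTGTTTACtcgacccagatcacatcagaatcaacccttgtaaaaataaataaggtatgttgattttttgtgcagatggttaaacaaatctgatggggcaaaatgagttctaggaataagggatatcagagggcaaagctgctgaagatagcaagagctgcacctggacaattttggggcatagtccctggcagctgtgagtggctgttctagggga
Prlr start 3: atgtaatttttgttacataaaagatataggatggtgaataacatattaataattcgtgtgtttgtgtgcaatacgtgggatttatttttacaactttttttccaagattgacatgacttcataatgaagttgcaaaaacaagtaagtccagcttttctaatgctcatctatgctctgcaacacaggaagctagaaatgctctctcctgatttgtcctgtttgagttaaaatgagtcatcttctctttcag
The first window holds CCAAT, which ends 19 bases before the start, and 33.8% of all 32851 RefSeq windows of this length hold it on either strand. The second holds TGTTTAC 208 bases before the start, found in 3.17% of windows. The third holds none of the 4 motifs and has a GC content of 32.8%, against 48.0% and 44.8% in the other two. The TATA box and the OTX2 motif, which are found in 12.4% and 6.25% of all windows, were not in these windows. The counts per gene do not tell which start was used.

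*Prlr* had 3.02, 3.31, 2.90 and 3.05 CPM in the control brains and 2.57, 2.76, 2.47 and 2.55 CPM in the stressed brains. Every stressed brain was below every control brain. The Log2FC was -0.25 (SE 0.12, 95% interval -0.49 to -0.01, unadjusted p = 0.0453, adjusted p = 0.176 by edgeR), so the difference did not pass the adjusted test, and 26.9% of all genes had an unadjusted p-value under 0.05. The exact permutation test, two-sided, gave the smallest p it can give, 0.0286, not adjusted for the 9 genes. That p only restates that the groups did not overlap, which held for 16.4% of all genes tested. When any single brain was left out, its Log2FC lay from -0.27 to -0.22 with an adjusted p of 0.187 or more, and DESeq2 gave an adjusted p = 0.455. Of the 9 genes of prolactin receptor signalling, all were tested and none was called. Among them *Cish*, an inhibitor that the pathway induces, had 8.83 ± 0.281 CPM in the control and 7.99 ± 0.405 CPM in the stress group (SD over 4 brains each), with an adjusted p = 0.205 by edgeR. It was the 1 gene of these 9 whose groups did not overlap, against 16.4% of all genes tested. *Jak2*, the kinase of the receptor and the one of highest level per kilobase, had 107 CPM in control and 106 CPM in stressed brains.

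*Folr1* (chromosome 7, bases 101858331 to 101870788, minus strand) encodes the folate receptor alpha, which carries folate across the plexus into CSF. It had 11, 11, 11 and 18 counts in the control brains and 14, 5, 16 and 9 counts in the stressed brains. The lowest value was in stress F35 and the highest in control M31, so the groups overlapped, and the Log2FC was -0.20 (SE 0.33, 95% interval -0.87 to 0.47, adjusted p = 0.752 by edgeR). Of 22 genes of folate transport and one-carbon enzymes, 21 were tested, 3 rose and 1 fell, against 6.49% and 7.27% of all genes. Among those that rose were *Shmt1*, which moves a carbon from serine to folate (Log2FC 0.28, adjusted p = 0.00506), and *Gldc* of the glycine cleavage system (0.23, adjusted p = 0.00353). *Amt*, another enzyme of glycine cleavage and the one of highest level per kilobase, fell by 0.26 on the log2 scale (adjusted p = 8.02e-05).

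Among the proteins that move water and ions, *Aqp1* (chromosome 6, bases 55336432 to 55348555, plus strand) encodes the apical water channel. It had 31, 14, 18 and 14 counts in the control brains and 22, 11, 25 and 21 counts in the stressed brains. The groups overlapped with a Log2FC of 0.05 (SE 0.28, 95% interval -0.53 to 0.63, adjusted p = 0.933 by edgeR), and the sign changed in 4 of 8 fits that left out a brain. Of 11 other aquaporins, 5 were tested, *Aqp2* was at 0 in every brain, and 1 fell, *Aqp4*, the water channel of astrocytes and ependyma (8.03 ± 0.736 CPM in the control and 5.28 ± 0.935 CPM in the stress group, SD over 4 brains each, Log2FC -0.61, adjusted p = 0.000294 by edgeR). The groups of *Aqp4* did not overlap, which held for 1 of the 5 aquaporins tested, against 16.4% of all genes tested. *Aqp11*, the one of highest level per kilobase, had 12.6 CPM in the control and 12.4 CPM in the stress group.

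*Clic6* (chromosome 16, bases 92485736 to 92541243, plus strand) encodes a chloride intracellular channel protein. It had 35, 19, 16 and 23 counts in the control brains and 34, 25, 31 and 23 counts in the stressed brains, with control F36 at the top and the other 3 control brains at 23 counts or fewer. The Log2FC was 0.30 (SE 0.23, 95% interval -0.17 to 0.78, adjusted p = 0.434 by edgeR). All 4 other CLIC proteins were tested and 2 rose, against 6.49% of all genes. These were *Clic1* (Log2FC 0.15, adjusted p = 0.0314) and *Clic4* (0.11, adjusted p = 0.0114), the one of highest level per kilobase. Both are made in many cell types.

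*Slc4a5* (chromosome 6, bases 83219828 to 83304945, plus strand) encodes a sodium bicarbonate cotransporter of the apical membrane. It had 5, 5, 8 and 8 counts in the control brains and 18, 10, 8 and 5 counts in the stressed brains, with stress F34 the highest. In the fit without a filter the Log2FC was 0.65 (SE 0.38, 95% interval -0.09 to 1.38, adjusted p = 0.434 by edgeR), in which the spread came from genes of similar level alone, and the exact permutation test, two-sided, gave p = 0.371. In this fit 7.02% of 34568 genes were called. Of 9 other Slc4 bicarbonate transporters, 8 were tested and 3 fell, against 7.27% of all genes in the main fit. These were *Slc4a4* (Log2FC -0.22, adjusted p = 0.0051), *Slc4a10* (-0.14, adjusted p = 0.026) and *Slc4a3* (-0.12, adjusted p = 0.00844). *Slc4a10* serves the basolateral membrane of the plexus but is also made by neurons, and it is counted again in the next group.

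All 14 genes of ion transport for CSF secretion were tested, of which 2 rose and 3 fell, against 6.49% and 7.27% of all genes. *Slc12a7*, a potassium chloride cotransporter, rose with a Log2FC of 0.26 (adjusted p = 0.000812), and *Slc12a2*, the sodium potassium chloride cotransporter NKCC1, with 0.10 (adjusted p = 0.046). *Atp1b1*, a subunit of the sodium pump and the gene of highest level per kilobase, fell by 0.25 on the log2 scale (adjusted p = 3.95e-05), and 18.7% of its exon bases lie in *Nme7* on the other strand. All genes of this list are made by neurons or glia as well. Of the 10 genes of thyroid hormone and retinol carriage, all tested, 1 rose and 2 fell, against the same shares. *Thra*, a thyroid hormone receptor and the one of highest level per kilobase, fell by 0.13 on the log2 scale (adjusted p = 0.00143).

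Another 22 genes known from the plexus epithelium were listed for comparison, of which 15 were tested, 2 rose and 1 fell. The shares over all genes tested were 6.49% and 7.27%. *Kcne2*, a potassium channel subunit of the apical membrane, rose with a Log2FC of 1.02 (SE 0.34, adjusted p = 0.0475 by edgeR), from 4 to 12 counts in the control brains to 5 to 24 in the stressed brains. The groups of *Kcne2* overlapped, and its call was kept in 1 of 8 fits that left out a brain and was not made by DESeq2 (adjusted p = 0.227). *Otx2*, a transcription factor that the plexus needs throughout life, rose from 38.0 ± 2.81 to 43.2 ± 1.28 CPM (SD over 4 brains each, Log2FC 0.19, adjusted p = 0.00294), and it is also made in the midbrain and thalamus. *Slco1c1*, a thyroxine transporter of plexus and brain capillaries, fell from 23.7 ± 1.53 to 16.2 ± 0.694 CPM (Log2FC -0.55, adjusted p = 7.31e-07). The calls of *Otx2* and *Slco1c1* were kept in all 8 fits that left out a brain and by DESeq2. *Slc29a4*, a monoamine transporter that neurons also make and the one of highest level per kilobase, had 109 CPM in control and 107 CPM in stressed brains. The summed level of the 22 genes ran from 190.3 to 198.1 CPM in the control and from 186.6 to 198.0 CPM in the stress group, of which *Slc29a4* made up more than any other gene.

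The 9 genes moved together over the brains only in part. Pearson's r of a gene's log2 CPM with the mean of the other 8 was above 0 for 8 of 9 genes, from 0.18 for *Folr1* to 0.81 for *Clic6* and 0.82 for *Ttr*, and -0.39 for *Prlr* (8 brains of 2 litters, given as a description). For every gene but *Ttr*, that unscaled mean included *Ttr*. Its SD within groups was 1.88, against 0.07 to 0.49 for the others of the 9 that were tested. These r values therefore partly repeat those with *Ttr* given below. Stress F34, which had the most *Ttr*, stood at 11.3 times the control mean for *Ttr*, 2.80 times for *Slc4a5*, 1.48 times for *Clic6* and 1.15 times for *Aqp1*, but at 0.787 times for *Kl* and 0.836 times for *Prlr*. *Ttr* took between 1.77% of the counts of the 9 genes in control F37 and 47.3% in stress F34. The summed level of the 9 genes was 30.6 to 43.1 CPM in the control and 29.7 to 63.2 CPM in the stress group. Without *Ttr* it was 29.5 to 36.1 CPM in the control and 29.1 to 35.7 CPM in the stress group, of which *Enpp2* was the main part.

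Over the 8 brains, which share 2 litters, Pearson's r of log2 CPM with *Ttr* was 0.86 for *Clic6*, 0.76 for *Slc4a5*, 0.56 for *Enpp2*, 0.45 for *Sostdc1*, 0.37 for *Aqp1*, 0.34 for *Kl*, 0.13 for *Folr1* and -0.42 for *Prlr*. Among the 22 other plexus genes it was above 0 for 14 and below 0 for 8, with a median of 0.10, from -0.51 for *Slco1c1* to 0.90 for *Kcne2*, next to which came *Wfikkn2*, a secreted protease inhibitor, with 0.71 and *Lbp* with 0.69. Without stress F34 the r was 0.82 for *Kcne2*, 0.85 for *Clic6*, 0.49 for *Slc4a5* and 0.30 for *Lbp*. These correlations describe the same libraries at low counts and were given no p. Whether the amount of plexus tissue in each library had a part in the values of *Ttr* was not tested, and *Kcnj13* and *Cldn2* at or near 0 in every brain gave no measure of it.

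**Figure D4:**
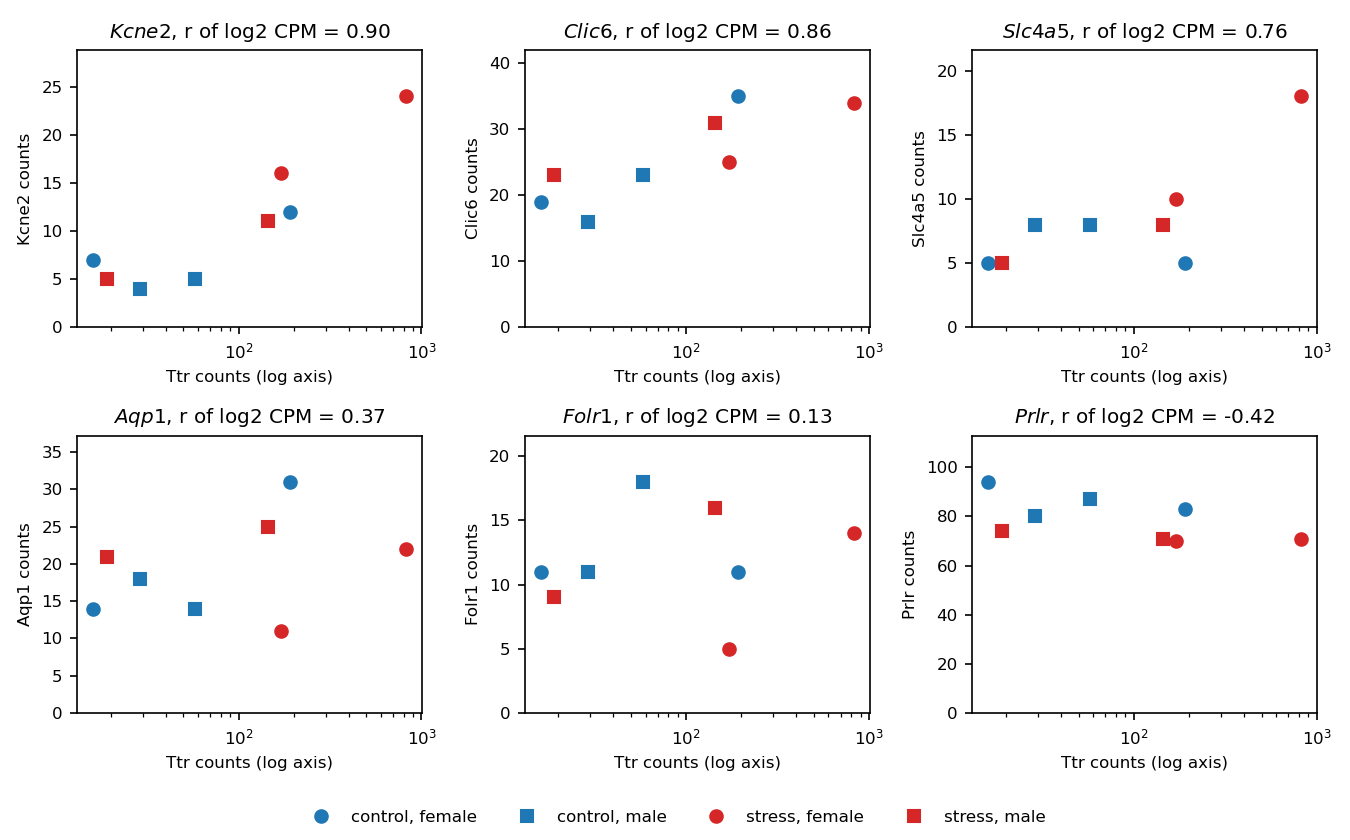
Counts of 6 genes against counts of *Ttr* (log axis) in the 8 brains, with control brains in blue, stressed brains in red, females as circles and males as squares. The r of log2 CPM with *Ttr* is 0.90 for *Kcne2*, 0.86 for *Clic6*, 0.76 for *Slc4a5*, 0.37 for *Aqp1*, 0.13 for *Folr1* and -0.42 for *Prlr*.

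The 10 genes tested whose log2 CPM was most like the mean of the 9 genes over the 8 brains were *Gm17501*, *Uqcc1*, *Jade1*, *Slc45a3*, *Kcnn2*, *Ifi203*, *Gm10785*, *Itga2*, *Krt73* and *Gm13404*, with r from 0.977 to 0.906. None of the 10 belonged to a list used here, and none was called in the comparison of stress with control. With *Ttr* alone as reference 5 of these 10 genes were among the nearest 10, and after each gene was centred within group and sex 2 were. The mean was not scaled by gene, so that *Ttr*, with the largest spread of the members tested, weighed most in it.

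Genes of the tissue from which the plexus grows and of its cilia were also compared. Of 15 genes of the roof plate and cortical hem, 13 were tested and none was called, and *Rspo3*, a Wnt agonist of the hem and the one of highest level per kilobase, had 16.1 CPM in the control and 15.9 CPM in the stress group. Of 12 genes of multiciliogenesis, 11 were tested and 1 fell, *Tppp3*, a tubulin-binding protein and the one of highest level per kilobase (Log2FC -0.27, adjusted p = 0.00118). *Foxj1*, the regulator of motile cilia, had 14.4 ± 1.17 CPM in the control and 13.3 ± 2.34 CPM in the stress group (SD over 4 brains each, adjusted p = 0.455 by edgeR).

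Markers of other cells that a brain sample can hold varied beside *Ttr*. Of 13 genes of meninges and fibroblasts, 9 were tested and 2 rose, *Col1a1* (Log2FC 1.59, adjusted p = 0.00732) and *Col1a2* (0.79, adjusted p = 0.0125), collagens whose calls, like that of *Ttr*, were lost in the robust form (adjusted p = 0.310 and 0.342) and in DESeq2 (0.274 and 0.320). The summed level of this list was 26.4, 16.0, 19.6 and 17.6 CPM in control F36, F37, M30 and M31. In the stressed brains it was 26.8 CPM in F34, 19.6 in F35, 49.4 in M28 and 23.4 in M29. The highest brain was M28 for this list and F34 for *Ttr*. Among the control brains, F36 was the highest and F37 the lowest for both. *Ptgds*, a prostaglandin synthase of the meninges and plexus, had the highest level per kilobase of the list. Of 4 pineal genes, 2 were tested and *Tph1* rose (0.250 ± 0.111 to 0.517 ± 0.0853 CPM, SD over 4 brains each, Log2FC 1.04, adjusted p = 0.0375), with a summed level of 0.580 to 0.951 CPM in the control and 0.966 to 1.46 CPM in the stress group, highest in stress F34 and F35. *Asmt* and *Crx*, which define the pineal, had at most 3 counts in a brain. Of 9 genes of the retinal pigment epithelium, 5 were tested and *Dct* rose (Log2FC 0.38, adjusted p = 0.0288), with summed levels of 48.3 to 53.8 CPM in the control and 53.2 to 58.8 CPM in the stress group, most of it *Rlbp1*, and with *Rpe65* and *Mlana* at 0 or 1 count. Of 10 pituitary genes, 5 were tested and none was called, and *Gh* and *Prl* were at 0 in every brain. The part of these cells in the values of *Ttr* was not tested.

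All 7 endothelial genes were tested and 4 fell, against 7.27% of all genes. These were *Flt1* (Log2FC -0.41, adjusted p = 2.19e-05), *Kdr* (-0.29, adjusted p = 8.35e-05), *Tek* (-0.23, adjusted p = 0.0359) and *Cldn5* (-0.13, adjusted p = 0.0267), the one of highest level per kilobase. The summed level of the 7 endothelial genes was 149 to 166.5 CPM in control and 133 to 142 CPM in stressed brains without overlap. Of 10 erythroid genes, 9 were tested, the embryonic globins *Hba-x* (Log2FC 1.09, adjusted p = 2.21e-05) and *Hbb-y* (0.84, adjusted p = 0.00012) rose and *Hbb-bs*, the one of highest level per kilobase, fell (-0.14, adjusted p = 0.00976). Of 8 genes of the oligodendrocyte lineage, all tested, *Pdgfra* (Log2FC -0.31, adjusted p = 0.000187) and *Olig1* (-0.26, adjusted p = 0.000149) fell. None of 5 pericyte genes and none of 8 microglial genes was called. Of 8 genes of cartilage and muscle, 5 were tested and *Col2a1* rose (Log2FC 0.20, adjusted p = 0.0112, and 0.149 in the robust form). *Col2a1* made up 54.9 of the 59.6 CPM of this list in the control mean, and *Matn1* and *Myog* had at most 3 counts in a brain. Of 4 genes of surface ectoderm none passed the filter. Of the 196 genes of all lists that passed the filter, members included, 38 other than *Ttr* were called, against 13.8% of all genes tested. Of these 38, 22 were called in all 8 fits that left out a brain, by DESeq2 and in the robust form alike. The matching share over all called genes is not given here. DESeq2 did not call 11 of the 38, namely *Kcne2*, *Slc12a2*, *Slc4a10*, *Clic1*, *Dct*, *Tph1*, *Cldn5*, *Tek* and the 3 collagens. The plot of summed levels shows the 9 plexus genes and the meninges with single brains far out, in stress F34 and in stress M28, the low pineal list higher in stress F34 and F35, and the other lists within narrower bounds.

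**Figure D5:**
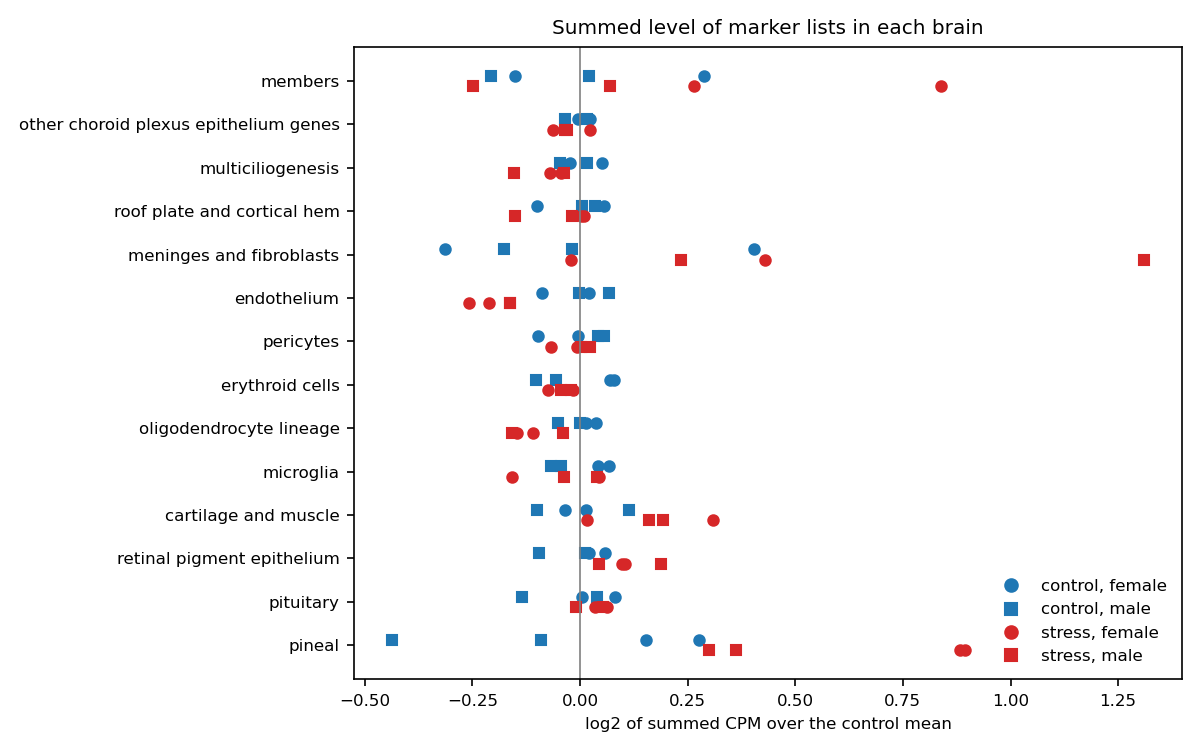
Summed CPM of 14 gene lists in each brain, on a log2 scale relative to the control mean, with control brains in blue, stressed brains in red, females as circles and males as squares. The 9 plexus genes (labelled members) reach furthest in stress F34, the meninges in stress M28, and the endothelial genes lie lower in all 4 stressed brains.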

How the data were processed

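The members were found by gene symbol, matched through GENCODE identifiers (54723 of 54752 paired with a symbol). The members, the gene lists and the tests were chosen with earlier results of these data known. The authors trimmed paired reads with Trim Galore, aligned them to mm10 with TopHat2 2.1.1, which keeps reads with up to 20 places, and counted read pairs on exons with featureCounts 1.6.3 without regard to strand. The counts were deposited raw, 1 value per gene and brain, without normalization. Reads of genes that overlap on the 2 strands cannot be told apart, and those of globin genes with near-identical copies are uncertain.

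From the counts, genes were kept by filterByExpr (minimum count 10), scaled by TMM and tested with edgeR 4.0.16 (glmQLFit and glmQLFTest, R 4.3.3) with sex and condition, with Benjamini-Hochberg adjustment (called under 0.05). The model of the study also held batch, which is not named for these 8 libraries. The log2 CPM values used a prior count of 2. The exact permutation test compared mean log2 CPM. Alternatives were DESeq2 1.42.0, other scalings, no filter, no sex covariate and each animal left out. The robust form of edgeR's test and the interaction of *Slc4a5* without filter were added after the data were seen. The fits were tested on simulated data with the same small spread for every gene and with changes only in genes of higher counts. That test does not cover a spread such as that of *Ttr* or the low counts of other members. Named genes are all members, and from each other list the called genes of largest Log2FC (up to 4, or 8 for the other plexus genes), the gene of highest level and genes at 0 throughout, with the 10 genes most like the members. *Kcnj13*, *Cldn2*, *Krt8*, *Krt18*, *Wfikkn2*, *Lbp*, *Lpar1*, *Cish*, *Foxj1*, *Asmt*, *Crx*, *Rpe65*, *Mlana*, *Matn1* and *Myog* were named after their values were seen. Some of the genes that this rule takes are not reported here.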

Additional observations from a re-analysis of the deposited data

Results flagged for a closer look

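*Folr1* in control M31 stood apart from its 3 littermates, with 0.632 CPM against 0.387 to 0.400 CPM, a gap of 0.948 of the group's range, above the 0.829 expected for 4 samples at the 95% level. The difference was 18 counts against 11 in each of the other 3 control brains, and the stressed brains had 14, 5, 16 and 9. The chi-square of the 4 control counts was 2.62, where counting error alone gives 3 on average. Among the 68 groups of values checked, chance marks about 1 in 20.

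*Slc4a5* was higher in both stressed females than in both control females, with a log2 difference of 1.55. In CPM it was lower in both stressed males than in both control males. In counts stress M28 had 8, as did both control males, and stress M29 had 5. All 8 brains had from 5 to 18 counts. This contrast between the sexes was not tested where it was noticed, since *Slc4a5* did not pass the filter. A test added afterwards without the filter gave an interaction of -1.87 on the log2 scale (SE 0.77, adjusted p = 0.792 by edgeR), which did not pass.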

How the results depend on the processing

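*Ttr* was called in the main edgeR fit, with other scalings and without a filter, and not by DESeq2, without sex as covariate or in the robust form, so that 0 of the 8 genes were called there instead of 1. With each animal left out, 0 to 1 of the genes were called. The number of genes called higher was 748 by DESeq2 instead of 1160, and with each animal left out it was 736 to 1057 higher and 854 to 1308 lower. With each animal left out, the Log2FC of *Aqp1* ran from -0.11 to 0.43, below 0 without control F37, control M31 (-0.10), stress F34 (-0.0062) or stress M28 (-0.09), and that of *Enpp2* from -0.028 to 0.085, below 0 without control F37 (-0.01), control M30 (-0.01) or stress F35. The log2 ratio of the summed level of the 22 other plexus genes was -0.03, and 0.37 for the median of their log2 CPM. Of the 10 nearest genes, 5 were shared with *Ttr* alone as reference and 2 after centring. The causes were not tested. No paired analysis was possible because the groups share no replicate numbers. At most 44 counts of *Kl*, *Clic6*, *Aqp1*, *Folr1* and *Slc4a5* per library limit what could be seen of them, and 1 litter per group limits all comparisons.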
